A study of Rattus rattus with 24 samples.

Results

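Rat oligodendrocyte precursor cells (OPCs) kept for 48 hours with quetiapine at 1 μM were compared with OPCs kept for 48 hours with T3 at 45 nM. These cultures gave 6 of the 24 arrays of the series, 3 for each compound, chosen by their labelled treatment and time and paired by replicate number. All 31042 probe sets other than the array's own control probes were tested. The cells came from cortices of P4 to P7 rat pups, were selected with A2B5 microbeads and expanded with PDGF before the compounds were added. Other arrays served as points of reference. At 48 hours these were T3 at 45 nM together with quetiapine at 1 μM (the combination) and a control, 3 arrays each. The control held none of the compounds per the labels and DMSO vehicle per the methods. At 96 hours these were quetiapine and T3 cultures, 3 arrays each. Per the methods the medium was replenished at 48 hours, and the compounds are not named again for that step. The labels give the organism as Rattus rattus, and the methods name Sprague Dawley rats. Each of 3 biological replicates supplied a culture of every condition. The labels name SATO medium and the methods a medium with B27, a commercial supplement that holds a small amount of T3, so the cultures without added T3 cannot be taken as free of the hormone. Each compound was used at a single dose, and the doses differ, so every value below compares these exposures and not equal amounts.

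T3 (triiodothyronine) is the active thyroid hormone. It enters cells through membrane transporters and binds nuclear thyroid hormone receptors, which sit on DNA with retinoid X receptors and, once bound, turn on their target genes. It is a long known signal for OPCs to leave the cell cycle and mature. Quetiapine is an atypical antipsychotic that blocks dopamine, serotonin, histamine and adrenergic receptors at the cell surface. Cholesterol, a main lipid of myelin, is made from acetyl-CoA through mevalonate and squalene by a chain of enzymes whose genes are switched on together by SREBP transcription factors, while LXR receptors turn on genes that export or store sterols. The comparison asks which genes set OPCs given quetiapine apart from OPCs given T3.

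The values were log2 expression after RMA, which corrects background, brings all arrays to a common distribution and condenses the probes of a set into a single value, so a difference of 1 is a doubling. The medians of the 12 arrays of 48 hours lay between 6.434 and 6.502, and replicates of a compound correlated at 0.99 to 0.995 across probe sets, which are not independent. The oligodendrocyte lineage genes were well detected: Olig1 lay between 13.00 and 13.12 in quetiapine cultures and between 13.05 and 13.12 in T3 cultures, and Pdgfra, the PDGF receptor of OPCs, between 12.18 and 12.49 and between 12.09 and 12.33. Astrocyte genes were also high, with Gfap at 12.76, 13.34 and 13.30 in quetiapine cultures and at 12.95, 13.45 and 13.59 in T3 cultures, so the cultures were not OPCs alone. The mean over 11 astrocyte markers was lower in the quetiapine culture of all 3 pairs, by 0.112, 0.181 and 0.44 (Slc1a2 and Glul passed the test described below, the other 9 did not, and none did without the replicate block). Microglia markers averaged 5.49 to 6.12 in quetiapine cultures and 5.34 to 6.43 in T3 cultures, and none of the 14 passed. None of 15 vascular and fibroblast markers passed either, nor did any of 6 reference genes. Of 14 neuron markers 1, Map2, passed. Without T3 replicate 3 or quetiapine replicate 3 no astrocyte marker passed, without T3 replicate 1 or 2 or quetiapine replicate 2 only 1 did, and Map2 did not pass without T3 replicate 1 or 2 or quetiapine replicate 2 or 3. The signal of the 3' end of the beta-actin message over its 5' end, a sign of RNA integrity, was on the log2 scale 0.633, 0.611 and 0.647 in quetiapine cultures and 0.606, 0.566 and 0.622 in T3 cultures. It was higher with quetiapine in every pair. For GAPDH the same measure was −0.032, −0.092 and −0.116 in quetiapine cultures and −0.078, −0.08 and −0.089 in T3 cultures, lower with quetiapine in replicates 2 and 3. The part of these and of the astrocyte signal in the results was not tested. The arrays measured RNA of whole wells, so fewer cells of a type and less RNA per cell cannot be told apart.

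Compared to T3 cultures, quetiapine cultures had many more transcripts at a lower level than at a higher one. A probe set was called when its adjusted p (limma, replicate number as a block, Benjamini-Hochberg over all probe sets) was under 0.05 and its fold over 1.5. Quetiapine cultures were lower than T3 cultures in 672 probe sets (2.16% of those tested) and higher in 199 (0.641%), so 77.2% of the 871 calls were lower. The falls were also the larger changes. Of the lower probe sets 237 differed by more than 2-fold, 45 by more than 4-fold and 11 by more than 8-fold, while 18 of the higher ones passed 2-fold and none passed 4-fold. The median difference was −0.854 among the lower and 0.727 among the higher probe sets, and 0.0132 over all probe sets. The 3 pairs had the same sign in 869 of the 871. All 3 quetiapine arrays lay above all 3 T3 arrays for 160 of the 199 higher probe sets, against 8.28% of all probe sets, and below them for 490 of the 672 lower ones, against 7.51% of all. The calls were made on these same arrays, so these counts only describe them. The called probe sets with a single symbol named 422 lower and 108 higher genes. Of the 530, 212 had several probe sets, which all had the same sign for 180, and no gene passed the test in both directions. Leaving out all arrays of replicate 2 gave 391 lower and 89 higher probe sets, and a fit without the replicate block gave 240 and 70.

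**Figure D1:**
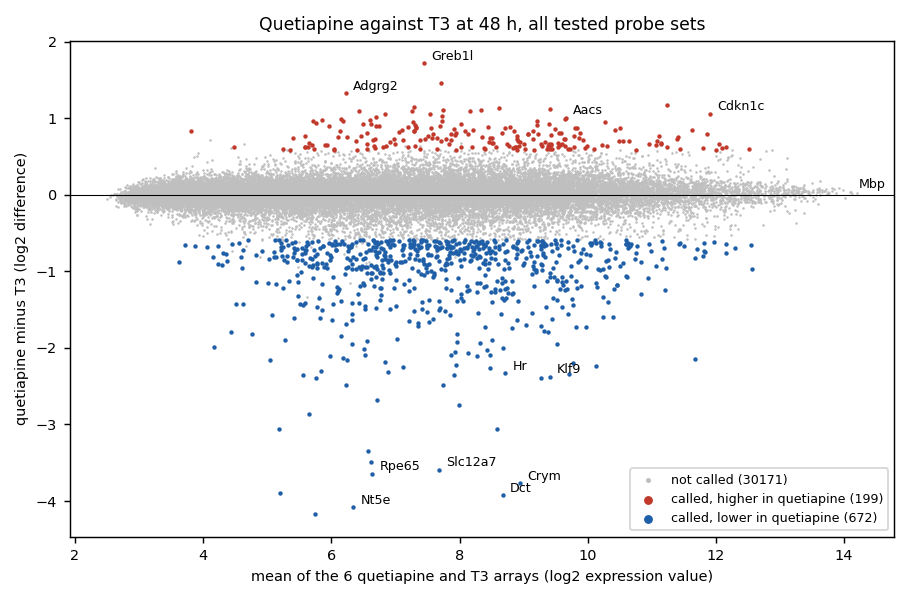
Difference in log2 expression, quetiapine minus T3, against the mean log2 level of the 6 arrays, for each of 31042 probe sets. Red points are the 199 called higher and blue points the 672 called lower in quetiapine cultures. The blue points reach below −4 (Nt5e at −4.08), while the highest red point, Greb1l, is at 1.72.

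The control cultures place these differences on a scale. For 526 of the 672 lower probe sets the control mean lay between those of the compounds, and in 494 (73.5%) it was nearer to the quetiapine mean, against 54.1% of all probe sets. For the 199 higher probe sets the control mean was nearer to quetiapine in 82 and nearer to T3 in 117. In the combination, which held both compounds at the same doses, the mean was nearer to quetiapine for 178 of the lower and 64 of the higher probe sets and nearer to T3 for 494 and 135. Over all probe sets it was nearer to quetiapine in 44.8%. T3 and quetiapine are also set beside control below. In those fits 4.63% of 14217 genes passed the test for quetiapine and 13.0% for T3, in either direction. Both contrasts use the same control arrays, so they are not independent of each other.

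The 15 genes with the largest fitted falls included Nt5e, an enzyme on the cell surface that makes adenosine from AMP. Nt5e was at 4.46, 4.18 and 4.27 in quetiapine cultures and at 8.38, 8.05 and 8.72 in T3 cultures, a difference of −4.08 ± 0.29 (SE, adjusted p = 2.36e-05). The quetiapine arrays were all near the control mean of 4.43, and the combination was at 9.06. Levels under 6 are near the floor of the array and were not shown to be above background, so the size of this fall and its place among the others are uncertain. The quetiapine means of Rpe65, Slc12a7, Slc15a1, Aldh1a1, B3gnt2 and Galnt14 below were also under 6. Dct, an enzyme of melanin synthesis, had 5.87, 6.21 and 8.05 in quetiapine cultures and 9.71, 10.25 and 11.94 in T3 cultures (−3.92 ± 0.19, adjusted p = 1.82e-06). Here replicate 3 was high under both compounds, the groups still did not overlap, and quetiapine was also below control by 1.18 (adjusted p = 0.013). Crym, a cytosolic protein that binds thyroid hormone, was at 7.12, 6.68 and 7.37 against 11.10, 10.61 and 10.77 (−3.77 ± 0.16, adjusted p = 8.04e-07). Rpe65, the isomerase of the visual cycle, was at 4.8, 4.7 and 4.94 in quetiapine cultures and at 8.01, 8.50 and 8.88 in T3 cultures (−3.65 ± 0.17, adjusted p = 1.6e-06). Its mean was 4.82 in quetiapine cultures and 4.802 in control cultures.

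The membrane transporters of this set behaved alike. Slc12a7, a potassium-chloride cotransporter, had 5.79, 5.68 and 6.16 in quetiapine cultures and 8.69, 9.15 and 10.58 in T3 cultures (−3.59 ± 0.24). The peptide transporter Slc15a1 had 5.26, 4.96 and 4.43 in quetiapine cultures and 8.49, 8.42 and 8.19 in T3 cultures (−3.49 ± 0.15). Neither differed from control under quetiapine past the test (−0.06 and −0.36), while T3 stood 3.53 and 3.13 above it. Aldh1a1, which makes retinoic acid, was at 4.63, 4.95 and 5.11 in quetiapine cultures and at 7.16, 8.69 and 8.87 in T3 cultures, a difference of −3.35 ± 0.22. Replicate 1 of T3 was the lowest of its group for this gene. The Golgi enzymes B3gnt2 (−2.68 ± 0.19) and Galnt14 (−2.49 ± 0.18), which extend or start sugar chains, fell as well. So did Ptgds, which makes prostaglandin D (−2.48 ± 0.26), Wls, which carries Wnt proteins to the surface (−2.40 ± 0.13), Sema3c, a secreted guidance cue (−2.36 ± 0.15), and Ninj2, an adhesion protein of glia (−2.35 ± 0.32). The remaining 2 of the 15, Klf9 and Hr, are T3 target genes described below. In all 15 genes the arrays of both compounds lay apart, and every one stayed past the test when any single 48 hour array was left out. Ptgds and Ninj2 did not pass in the fit without the replicate block (adjusted p = 0.158 and 0.107).

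The 15 largest rises were smaller and less uniform. Greb1l, a gene needed for kidney development, led with 8.48, 8.37 and 8.06 in quetiapine cultures and 6.86, 6.42 and 6.48 in T3 cultures (1.72 ± 0.15, adjusted p = 8.02e-05, 3.29-fold). It stood on both sides of control, 1.00 above it under quetiapine and 0.72 below it under T3, each past the test. Adgrg2, an adhesion G protein-coupled receptor, had 5.70, 6.48 and 8.49 in quetiapine cultures and 4.97, 5.34 and 6.39 in T3 cultures (1.32 ± 0.30, adjusted p = 0.0196). Its groups overlapped, and it failed the test without any of 5 arrays, reaching an adjusted p of 0.099 without T3 replicate 3. Asxl3, a chromatin regulator, was steadier at 8.75, 8.93 and 9.0 in quetiapine cultures against 7.76, 7.81 and 7.79 in T3 cultures (1.10 ± 0.06, adjusted p = 7.14e-06). Cdkn1c, an inhibitor of cyclin-dependent kinases, had 12.48, 12.47 and 12.36 in quetiapine cultures and 11.58, 11.37 and 11.19 in T3 cultures (1.06 ± 0.11). Nav2, a microtubule-binding protein, differed by 1.12 ± 0.12, Cdh11, a cadherin, by 1.02 ± 0.10, and Igf2bp2, an RNA-binding protein of Igf2 messages, by 0.99 ± 0.10. Pak3 and Shtn1, which act on actin and growth cones in neurons, differed by 0.96 ± 0.08 and 1.00 ± 0.18, and Afap1l1, an actin-linked adaptor, by 1.05 ± 0.16. Tnfaip3, an inhibitor of NF-κB signalling, differed by 0.98 ± 0.10, although its groups overlapped (6.78, 6.94 and 7.58 against 5.63, 5.93 and 6.79). Chst4, a sulfotransferase (1.02 ± 0.25), failed the test without any of 6 arrays (adjusted p = 0.13 without quetiapine replicate 3), and Spag16, a protein of the axoneme (0.96 ± 0.20), without any of 3 (adjusted p = 0.076 without T3 replicate 3). Xkr4 (0.96 ± 0.14) and Aacs, which feeds ketone bodies into lipid synthesis (1.00 ± 0.13), complete the set. In the fit without the replicate block Adgrg2, Nav2, Chst4, Shtn1, Tnfaip3, Spag16 and Pak3 did not pass (adjusted p from 0.113 to 0.505).

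**Figure D2:**
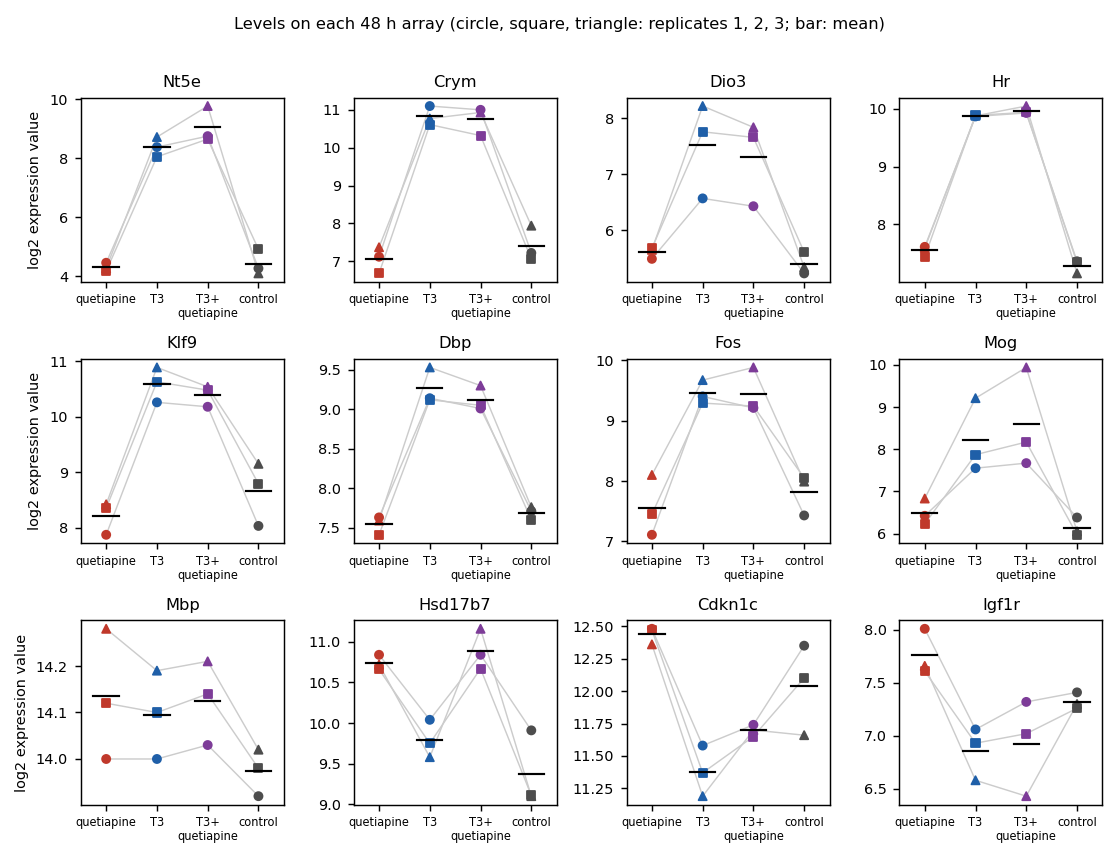
Log2 expression value of 12 genes on each 48 hour array, with quetiapine, T3, the combination and control from left to right. Symbols mark replicates 1, 2 and 3, lines join arrays of the same replicate, and black bars are means of 3. Each panel has its own vertical axis, which does not start at 0. For Nt5e, Crym, Dio3, Hr, Klf9, Dbp and Fos the quetiapine points lie with control and the T3 points with the combination, while for Hsd17b7 the quetiapine points lie with the combination.

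Of 23 measured genes known to respond to thyroid hormone, 10 were lower in quetiapine cultures and none was higher, against 6.91% and 5.14% of all genes past the test in these directions. These shares are the background for every list count that follows. The median of the list was −0.159, and that of all genes 0.00956. Klf9, Hr, Dbp and Nt5e are named in the study for their response to T3, so their direction is not independent evidence. Klf9, a transcription factor that a thyroid hormone receptor turns on directly, was at 7.87, 8.35 and 8.42 in quetiapine cultures and at 10.26, 10.63 and 10.89 in T3 cultures (−2.38 ± 0.12, adjusted p = 1.82e-06). Hr, a corepressor encoded by another direct target, was at 7.61, 7.44 and 7.59 against 9.87, 9.89 and 9.88 (−2.33 ± 0.07, adjusted p = 3.37e-07), with replicates within 0.2 of each other. Klf9 was the only one of 13 Krüppel-like factors that passed, and the other 12 lay between −0.16 and 0.24. Thrsp, a hormone-responsive gene of fat synthesis, stood out from these. It was at 7.80, 10.12 and 10.57 in quetiapine cultures and at 8.91, 11.42 and 10.99 in T3 cultures, so replicate 1 was low under both compounds and the groups overlapped. Within pairs T3 was always higher (−0.94 ± 0.14, adjusted p = 0.0022), and against control both compounds were higher, quetiapine by 1.12 and T3 by 2.06, each past the test. Me1, malic enzyme, differed by a smaller −0.64 ± 0.07, and Cpt1a, which admits fatty acids to mitochondria, and Ppargc1a, a coactivator of mitochondrial genes, by −1.04 ± 0.17 and −0.91 ± 0.14. For Cpt1a and Ppargc1a the difference lay on the other side of control. Quetiapine was below control by 0.89 (adjusted p = 0.023) and 0.67 (adjusted p = 0.028), and T3 differed from control by 0.16 and 0.23 without passing the test. The other 13 genes of the list did not pass and lay between −0.44 (Adamtsl4) and 0.11 (Hif1a and Nrgn). In the fit without the replicate block 7 genes of the list were lower past the test. Me1 and Cpt1a were not among them (adjusted p = 0.685 and 0.221).

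Of 17 measured genes for receptors, transport and inactivation of the hormone, 3 were lower in quetiapine cultures, 1 was higher and 13 did not pass. Those lower were Crym, given above, Dio3, the deiodinase that breaks T3 down, and Slc7a8, an amino acid transporter that also carries thyroid hormones. Dio3 was at 5.49, 5.68 and 5.65 in quetiapine cultures and at 6.57, 7.76 and 8.22 in T3 cultures (−1.91 ± 0.26, adjusted p = 0.00132). Slc7a8 differed by −0.41 ± 0.10 (adjusted p = 0.0238). Med1, a coactivator subunit that nuclear receptors recruit, was 0.21 ± 0.05 higher (adjusted p = 0.0321), and neither it nor Slc7a8 passed without the replicate block. Slc7a8 failed without replicate 2 or 3 of either compound (adjusted p = 0.12 without quetiapine replicate 2). Med1 failed without quetiapine replicate 2 (adjusted p = 0.15) or 3 or any T3 replicate. The receptors did not pass. Thra differed by 0.14 (95% interval −0.01 to 0.30) and Thrb by −0.14 (−0.38 to 0.10). These intervals, each of 1 probe set and not adjusted for the number of tests, stayed within 0.4 of 0 on the log2 scale. They describe the array signal and do not show that the receptor messages were equal.

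Quetiapine cultures had higher levels of nearly the whole sterol synthesis pathway than T3 cultures. All 7 measured enzymes of the mevalonate and isoprenoid steps and all 11 of the squalene and sterol steps had positive differences, and 6 and 10 of them passed the test (5.14% of all genes were higher). The medians of these lists were 0.566 and 0.657. From arrays of this series the study reported cholesterol synthesis gene sets as higher with quetiapine than with T3. It also names Fdft1, Sqle and Cyp51, so the direction of these lists is not independent evidence. From the start of the pathway, Acat2, which condenses acetyl-CoA, was at 12.28, 12.45 and 12.67 in quetiapine cultures and at 11.90, 11.80 and 11.81 in T3 cultures (0.63 ± 0.10, adjusted p = 0.00376). The kinases and decarboxylase that turn mevalonate into isoprenoid units followed, with Mvk at 0.64 ± 0.09, Pmvk at 0.51 ± 0.14 and Mvd at 0.85 ± 0.16. Idi1, which isomerizes the unit, differed by 0.57 ± 0.11 and Fdps, which joins units into farnesyl diphosphate, by 0.48 ± 0.10. Ggps1, on the branch that leads to protein prenylation and away from sterols, did not pass at 0.22 (adjusted p = 0.0798). Fdft1, the first enzyme committed to sterols, was at 11.32, 11.48 and 11.49 in quetiapine cultures and at 10.72, 10.84 and 10.64 in T3 cultures (0.70 ± 0.11, adjusted p = 0.00268). Sqle, which makes squalene epoxide, was at 12.33, 12.21 and 12.33 against 11.78, 11.67 and 11.64 (0.59 ± 0.08, adjusted p = 0.00152), and Cyp51, which demethylates lanosterol, at 12.56, 12.82 and 13.09 against 12.06, 12.24 and 12.37 (0.60 ± 0.09, adjusted p = 0.00218). The quetiapine arrays lay above the T3 arrays for each of these 3 enzymes.

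The largest difference of the pathway was in Hsd17b7, a reductase of the late steps. It was at 10.84, 10.66 and 10.72 in quetiapine cultures and at 10.04, 9.75 and 9.58 in T3 cultures (0.95 ± 0.17, adjusted p = 0.0056, 1.93-fold). The other late enzymes Lss (0.73 ± 0.11), Nsdhl (0.67 ± 0.11), Dhcr7 (0.66 ± 0.11), Tm7sf2 (0.66 ± 0.14), Msmo1 (0.58 ± 0.08) and Sc5d (0.51 ± 0.10) were also higher, and Ebp did not pass at 0.44 (adjusted p = 0.119). Relative to control, the squalene and sterol list had a median of 0.885 under quetiapine and 0.259 under T3. Hsd17b7 stood 1.37 above control under quetiapine (adjusted p = 0.0033) and 0.42 above it under T3 (adjusted p = 0.15). The combination mean for Hsd17b7 was 10.89, close to quetiapine alone. The mevalonate count rested partly on single arrays: it was 3 without quetiapine replicate 2 or 3 and 2 without T3 replicate 3, whereas the squalene and sterol count stayed between 8 and 10. Fitted without the replicate block, 3 and 6 of the enzymes passed.

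**Figure D3:**
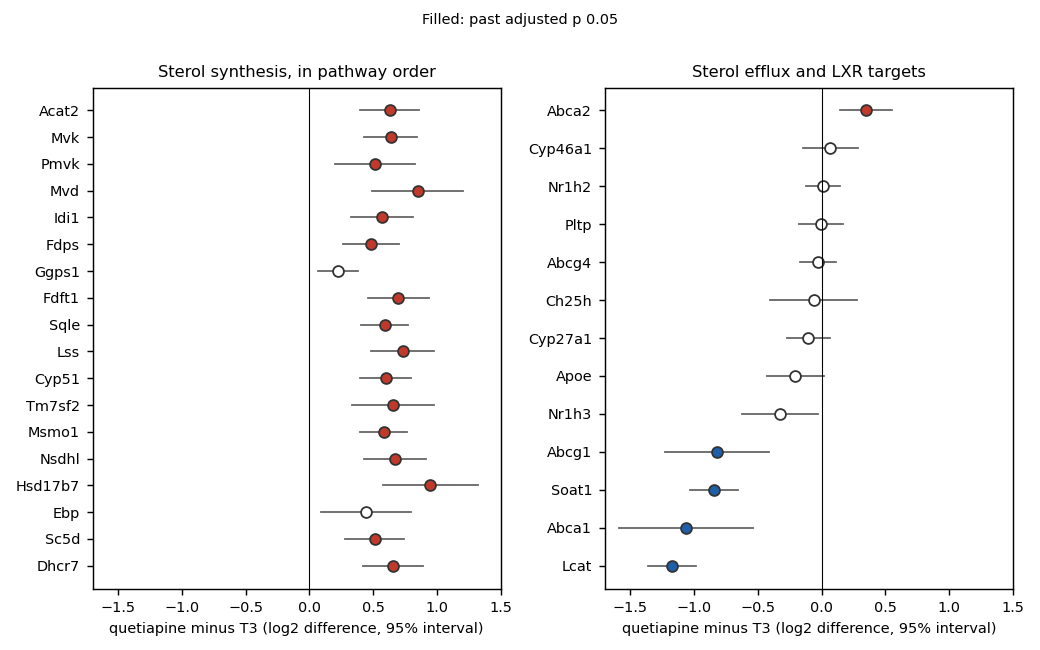
Differences in log2 expression, quetiapine minus T3, with 95% confidence intervals from the fit, for 18 sterol synthesis enzymes in pathway order (left) and 13 genes of sterol efflux and LXR (right). Filled points passed the test. All 18 enzymes lie right of 0, whereas Lcat, Abca1, Soat1 and Abcg1 lie left of −0.8.

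A list of sterol sensing, uptake and fatty acid genes, drawn up as SREBP targets, went both ways. It is called other SREBP targets below, although it holds Mylip, a target of LXR, and Me1, which is also on the thyroid hormone list. Of 19 measured, 7 were higher and 6 lower in quetiapine cultures (median 0.113), and 2 and 0 passed without the replicate block. Those higher mostly serve sterol sensing and acetyl-CoA supply. Aacs was at 10.13, 10.15 and 10.20 in quetiapine cultures and at 9.23, 9.20 and 9.03 in T3 cultures. Acss2, which makes acetyl-CoA from acetate, differed by 0.84 ± 0.10, Stard4, a sterol carrier, by 0.79 ± 0.13, Insig1, which retains SREBP in the ER membrane, by 0.61 ± 0.13, Acly, which makes acetyl-CoA from citrate, by 0.51 ± 0.10, Srebf2, the SREBP gene of sterol synthesis, by 0.41 ± 0.07, and Scd, a fatty acid desaturase, by 0.35 ± 0.06. Those lower included Srebf1, the SREBP gene of fatty acid synthesis, at 9.12, 9.60 and 9.32 in quetiapine cultures and 9.75, 10.17 and 10.20 in T3 cultures (−0.70 ± 0.11, adjusted p = 0.00263). Mylip, which degrades lipoprotein receptors and is a target of LXR, was at 5.30, 5.61 and 5.45 against 5.99, 6.58 and 6.67 (−0.96 ± 0.15). The fatty acid desaturases Fads1 and Fads2 differed by −0.44 ± 0.06 and −0.46 ± 0.11. For both, T3 was above control by 0.64 and 0.89 past the test, and quetiapine, 0.20 and 0.44 above it, did not pass. Me1 and Lpin1, a phosphatidate phosphatase (−0.32 ± 0.08), complete the lower set. Fasn and Acaca, the core enzymes of fatty acid synthesis, did not pass (0.12 and 0.11).

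In the sterol efflux and LXR list 4 of 13 genes were lower and 1 was higher in quetiapine cultures, against 6.91% and 5.14% of all genes, and none passed in either direction without the replicate block. Lcat, which esterifies cholesterol on lipoproteins, was at 9.41, 10.14 and 10.05 in quetiapine cultures and at 10.32, 11.36 and 11.44 in T3 cultures (−1.17 ± 0.08, adjusted p = 2.69e-05). Soat1, which esterifies it inside cells, differed by −0.84 ± 0.09. The exporters Abca1 and Abcg1 differed by −1.07 ± 0.24 and −0.82 ± 0.18, and Abca2, a transporter of the endolysosome, by 0.35 ± 0.09. Lcat was raised over control by T3 (0.87, past the test), but Abca1 and Abcg1 were below control under quetiapine (−1.25 and −1.39, adjusted p = 0.022 and 0.0047), with T3 not past the test. The count of lower genes was 2 without quetiapine replicate 2 or 3 or T3 replicate 1 or 3, and Abca2 failed without any of 6 arrays of these compounds. Apoe, the main lipoprotein of glia, did not pass at −0.20.

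Of 26 myelin and mature oligodendrocyte genes 7 were lower in quetiapine cultures and none higher, against 6.91% and 5.14% of all genes. The median of the list was −0.0656, and the mean over its genes was lower in the quetiapine culture of every pair, with differences of −0.288, −0.286 and −0.35. Mbp, the major protein of compact myelin, did not differ past the test. It was at 14.00, 14.12 and 14.28 in quetiapine cultures and at 14.00, 14.10 and 14.19 in T3 cultures, a difference of 0.04 with a 95% interval of −0.08 to 0.16 (adjusted p = 0.723). The highest probe set of each 48 hour array read 14.16 to 14.28, so these values lie at the top of the measured range. Cnp and Mag, other early myelin genes, did not pass either (0.07 and 0.09). The 7 genes that fell have various roles in the myelin sheath. Mog, a late surface protein of myelin, was at 6.42, 6.23 and 6.83 in quetiapine cultures and at 7.55, 7.87 and 9.21 in T3 cultures (−1.72 ± 0.37, adjusted p = 0.0163). Mobp was at 5.16, 4.96 and 7.29 against 6.53, 6.55 and 8.70 (−1.46 ± 0.39, adjusted p = 0.0414), with replicate 3 high under both compounds and the groups overlapping. Aspa, which releases acetate from N-acetylaspartate, differed by −1.37 ± 0.18, Pmp2 and Pllp, a lipid carrier and a membrane protein of myelin, by −1.49 ± 0.31 and −0.94 ± 0.23, Pmp22 by −0.67 ± 0.09 and Tspan2 by −0.40 ± 0.07. Against control, Mog and Mobp were raised by T3 (2.08 and 2.57, past the test), and under quetiapine were 0.36 and 1.12 above it without passing. The count of 7 was 3 without quetiapine replicate 2 or 3 or T3 replicate 3, 4 without T3 replicate 2, and 1 without the block (Pmp22, adjusted p = 0.031). Pmp22 is also counted among the Schwann cell markers below.

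Of 16 precursor genes 2 were higher and 2 lower, against 5.14% and 6.91% of all genes, and 0 and 1 without the replicate block. Lhfpl3 and C1ql1, enriched in OPCs, were 0.30 ± 0.07 and 0.33 ± 0.07 higher, and Cacng4, an auxiliary subunit of AMPA receptors, was at 7.04, 6.82 and 6.79 in quetiapine cultures and at 7.63, 7.67 and 7.40 in T3 cultures (−0.69 ± 0.11, adjusted p = 0.00263). Ncan, a matrix proteoglycan, differed by −0.54 ± 0.13. Except for Cacng4 these depended on single arrays, with no gene higher without quetiapine replicate 2 or T3 replicate 2 and 1 without replicate 3 of either, and 1 gene lower without replicate 2 or 3 of either compound. Pdgfra and Cspg4 did not pass (0.10 and 0.29, adjusted p = 0.593 and 0.0511).

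Among 20 transcription factors of the lineage, 5 were higher and 4 lower, against 5.14% and 6.91% of all genes, and 0 and 1 without the replicate block. Those higher included drivers of differentiation: Sox10, at 11.85, 11.54 and 11.27 in quetiapine cultures and 11.48, 11.21 and 10.89 in T3 cultures (0.36 ± 0.06, adjusted p = 0.00513), Myrf (0.37 ± 0.10), Tcf7l2 (0.36 ± 0.08), Zeb2 (0.43 ± 0.12) and Hes6 (0.39 ± 0.07). None of these reached 1.5-fold. Those lower were the Id proteins, which block bHLH factors, and Zfp536. Id2 was at 10.68, 10.58 and 10.54 in quetiapine cultures and at 11.40, 11.54 and 11.64 in T3 cultures (−0.93 ± 0.08, adjusted p = 6.47e-05). Quetiapine was below control (−0.37) and T3 above it (0.56), each past the test. Id1 differed by −0.57 ± 0.10 and Id3 by −0.39 ± 0.09, while Id4 did not pass at −0.14. Zfp536, a zinc finger repressor that is high in oligodendrocytes, was at 7.45, 7.64 and 8.51 in quetiapine cultures and at 8.93, 9.25 and 10.10 in T3 cultures (−1.56 ± 0.10, adjusted p = 1.41e-05). The count of higher factors was 2 without T3 replicate 1 or 2 or quetiapine replicate 2 or 3, and 3 without T3 replicate 3. Olig1 and Olig2 did not pass (0.00 and 0.11).

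Cell cycle genes leaned towards quetiapine. All 22 measured genes of DNA replication and S phase and all 20 of G2/M and mitosis had positive differences, of which 13 and 2 passed, and the list medians were 0.248 and 0.147. The differences were small. Uhrf1, which maintains DNA methylation at replication, was the only one over 1.5-fold, at 9.28, 9.08 and 9.61 in quetiapine cultures and 8.87, 8.43 and 8.87 in T3 cultures (0.60 ± 0.08, adjusted p = 0.000957). Cdt1, which licenses origins, differed by 0.43 ± 0.09, Mcm6, a subunit of the replicative helicase, by 0.42 ± 0.08, Ccne1, the cyclin of the entry to S phase, by 0.36 ± 0.07, and Mki67, a marker of cycling cells, by 0.29 ± 0.08. Relative to control the medians were −0.0853 under quetiapine and −0.339 under T3 for S phase, and −0.263 and −0.413 for mitosis. Uhrf1 was 0.21 below it under quetiapine, which did not pass, and 0.81 below it under T3, which did. The S phase count was 6 without T3 replicate 2, 5 without quetiapine replicate 2, 3 without quetiapine replicate 3 and 2 without T3 replicate 3, and 0 without the block. The mitotic genes that passed were Kif11 and Mki67. Without quetiapine replicate 1 the mitotic count was 4, and without any other of the 6 arrays it was 0.

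Inhibitors of the cycle went both ways. Cdkn1c, described above, was higher in quetiapine cultures, whereas Cdkn1a, at 8.36, 8.26 and 8.50 against 8.73, 9.04 and 9.08 in T3 cultures (−0.57 ± 0.10, adjusted p = 0.00414), Cdkn2c (−0.32 ± 0.05) and Cdkn2b (−0.40 ± 0.11) were lower, of which 1 passed without the block. Of 19 genes of ERK feedback and the immediate early response, 5 were higher and 1 was lower. The feedback inhibitors of ERK signalling Dusp6 (0.58 ± 0.09), Spry1 (0.55 ± 0.08) and Spry4 (0.36 ± 0.08) and the ETS factors Etv5 (0.35 ± 0.08) and Etv4 (0.32 ± 0.08) were those that rose. Dusp6 was at 9.65, 10.06 and 9.36 in quetiapine cultures and at 9.05, 9.33 and 8.94 in T3 cultures. Fos, the immediate early transcription factor, went the other way, at 7.11, 7.45 and 8.10 in quetiapine cultures and at 9.40, 9.29 and 9.67 in T3 cultures (−1.90 ± 0.15, adjusted p = 4.45e-05). T3 cultures stood 1.63 above control for Fos and quetiapine cultures 0.27 below it. Other immediate early genes did not pass (Junb −0.14, Egr1 0.59 with adjusted p = 0.0671). The 5 higher genes were 3 without quetiapine replicate 1 and 2 without replicate 2 or 3 of either compound, and 0 without the block. In the IGF axis, Igf1r, the receptor, was at 8.01, 7.61 and 7.66 in quetiapine cultures and at 7.06, 6.93 and 6.58 in T3 cultures (0.91 ± 0.13, adjusted p = 0.00159). Igfbp2, a binding protein, was 0.34 ± 0.07 higher and Igfbp7 was lower (−0.47 ± 0.09). Neither Igfbp2 nor Igfbp7 passed without T3 replicate 3 (adjusted p = 0.060 and 0.063) or without the block (adjusted p = 0.779 and 0.155). With Igf2bp2, 3 of 15 genes were higher, and 1 without the block.

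Of 16 circadian clock genes 8 were lower in quetiapine cultures and none higher (median −0.217). Dbp, an output factor of the clock and a known T3 target, was at 7.63, 7.41 and 7.59 in quetiapine cultures and at 9.14, 9.12 and 9.53 in T3 cultures (−1.72 ± 0.08, adjusted p = 1.58e-06). The repressors Bhlhe40 and Bhlhe41 differed by −1.20 ± 0.19 and −0.86 ± 0.16, Npas2, a partner of Bmal1, by −0.85 ± 0.19, the nuclear receptors Nr1d2 and Nr1d1 by −0.50 ± 0.06 and −0.35 ± 0.06, Clock by −0.25 ± 0.06 and Tef by −0.19 ± 0.05. The period genes Per1, Per2 and Per3 did not pass (−0.11, 0.00 and −0.03). The count was 4 without quetiapine replicate 2 or T3 replicate 3, 5 without quetiapine replicate 3 or T3 replicate 2, and 2 without the block.

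Retinoid genes included some of the strongest falls, with 5 of 19 lower and 1 higher. Besides Rpe65 and Aldh1a1, Rarres2, a secreted chemoattractant induced by retinoids, was at 6.03, 6.75 and 6.79 in quetiapine cultures and at 7.40, 8.39 and 8.79 in T3 cultures (−1.67 ± 0.13, adjusted p = 4.13e-05). Rdh10, which oxidizes retinol, differed by −0.58 ± 0.07 and Rarb, a retinoic acid receptor, by −0.70 ± 0.13. Rarb overlapped between groups and failed only just without T3 replicate 3 (adjusted p = 0.051). Rbp4 was 0.27 ± 0.06 higher but near the floor of the array (4.45 to 4.63 in quetiapine cultures) and failed without T3 replicate 2 or 3 or quetiapine replicate 2 or 3. The Cyp26 enzymes that degrade retinoic acid did not pass (−0.02 and −0.03). Of 13 genes of extracellular adenosine, 4 were lower: Nt5e, the deaminase Ada (−0.96 ± 0.17), the kinase Adk (−0.41 ± 0.07) and Entpd5 (−0.25 ± 0.06). Without the block 1 of the 4 passed. The adenosine receptors did not pass (−0.11 to 0.20).

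Lysosomal genes were lower or not past the test. Of 17 measured, 6 were lower, none was higher, and the median was −0.211. Lipa, the acid lipase that frees cholesterol from esters, was at 8.27, 8.22 and 8.15 in quetiapine cultures and at 9.55, 9.58 and 9.70 in T3 cultures (−1.39 ± 0.14, adjusted p = 0.000169). Ctsl, a protease, was at 10.02, 10.44 and 11.31 against 11.07, 11.79 and 12.64 (−1.24 ± 0.14), with the groups overlapping but T3 higher in each pair. Hexa, Gla, Psap and Cd63 differed by −0.53, −0.42, −0.30 and −0.26. Without the block 2 of the 6 passed. In the unfolded protein and integrated stress response list, 1 of 19 was higher, the asparagine synthetase Asns (0.39 ± 0.07), and 3 were lower, Atf3 (−0.86 ± 0.14), Atf5 (−0.34 ± 0.07) and Dnajb9 (−0.29 ± 0.06). Without quetiapine replicate 2 the lower count was 1, and without the block no gene of this list passed. The chaperone Hspa5 was level (0.00).

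Of 25 ion transport genes 5 were lower and 3 higher, against 6.91% and 5.14% of all genes, and 3 and 0 without the replicate block. With Slc12a7, its relative Slc12a4 differed by −0.74 ± 0.08, as did the potassium channels Kcna1 (−0.91 ± 0.16), Kcna2 (−0.80 ± 0.13) and Kcnj10, the channel by which glia take up potassium (−0.75 ± 0.11). Kcna6 (0.63 ± 0.15), Kcnk10 (0.54 ± 0.12) and Kcnq5 (0.41 ± 0.10) were higher. All 3 failed without T3 replicate 3, and 1 passed without quetiapine replicate 3. Of 23 receptors and transporters that quetiapine is known to bind, 21 did not pass. Adra2a, an adrenergic receptor, was at 6.94, 6.92 and 6.19 in quetiapine cultures and at 7.93, 7.69 and 8.10 in T3 cultures (−1.22 ± 0.19, adjusted p = 0.00268), and Chrm3, a muscarinic receptor, at 5.95, 5.97 and 5.93 against 5.53, 5.28 and 5.17 (0.62 ± 0.08, adjusted p = 0.000737). For Adra2a it was T3 that departed from control (0.94, adjusted p = 0.012), and for Chrm3 quetiapine (0.43, adjusted p = 0.019). Chrm3 was under 6, near the floor of the array, under both compounds.

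Adhesion and matrix genes moved little as groups. Of 22 cadherin and adhesion genes 3 were higher (Cdh11, Cadm1 at 0.38 ± 0.08 and Ncam2 at 0.35 ± 0.09) and 1 lower, Ncam1 (−0.73 ± 0.13). Of all genes 5.14% were higher and 6.91% lower. Without T3 replicate 1 or 3 or quetiapine replicate 3, 1 was higher, and without the block 1 was higher and none lower. Cdh11 had several probe sets, and the one with the highest level read 10.71, 10.94 and 11.04 in quetiapine cultures and 10.06, 10.20 and 10.32 in T3 cultures. Of 27 collagens, laminins and integrins 3 were lower (6.91% of all genes were) and none without the block. They were Lamb1 at 5.23, 4.66 and 4.63 against 6.72, 5.50 and 6.61 in T3 cultures (−1.44 ± 0.21), Itgb4 (−0.76 ± 0.16) and Col11a1 (−0.30 ± 0.07). The count was 1 without replicate 3 of either compound. Of 13 genes of sphingosine phosphate and lysophosphatidate signalling, 3 were lower (S1pr1, Lpar6 and Sphk2, −0.48 to −0.27) and 1 higher, Lpar4 (0.34 ± 0.07). None of the 3 was lower without quetiapine replicate 2 or 3 or T3 replicate 3, 1 was without T3 replicate 2, and Lpar4 failed without T3 replicate 1 or 2 or quetiapine replicate 2. None of the 4 passed without the block. Among Schwann cell markers, several of which OPC cultures also express, 4 of 8 were higher (Pou3f1 0.79 ± 0.20, Gap43 0.53 ± 0.08, Prx 0.48 ± 0.09 and Sox2 0.23 ± 0.06) and Pmp22 was lower. The count of 4 was 1 or 2 without quetiapine replicate 1, 2 or 3 or T3 replicate 2, and 0 without the block.

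**Figure D4:**
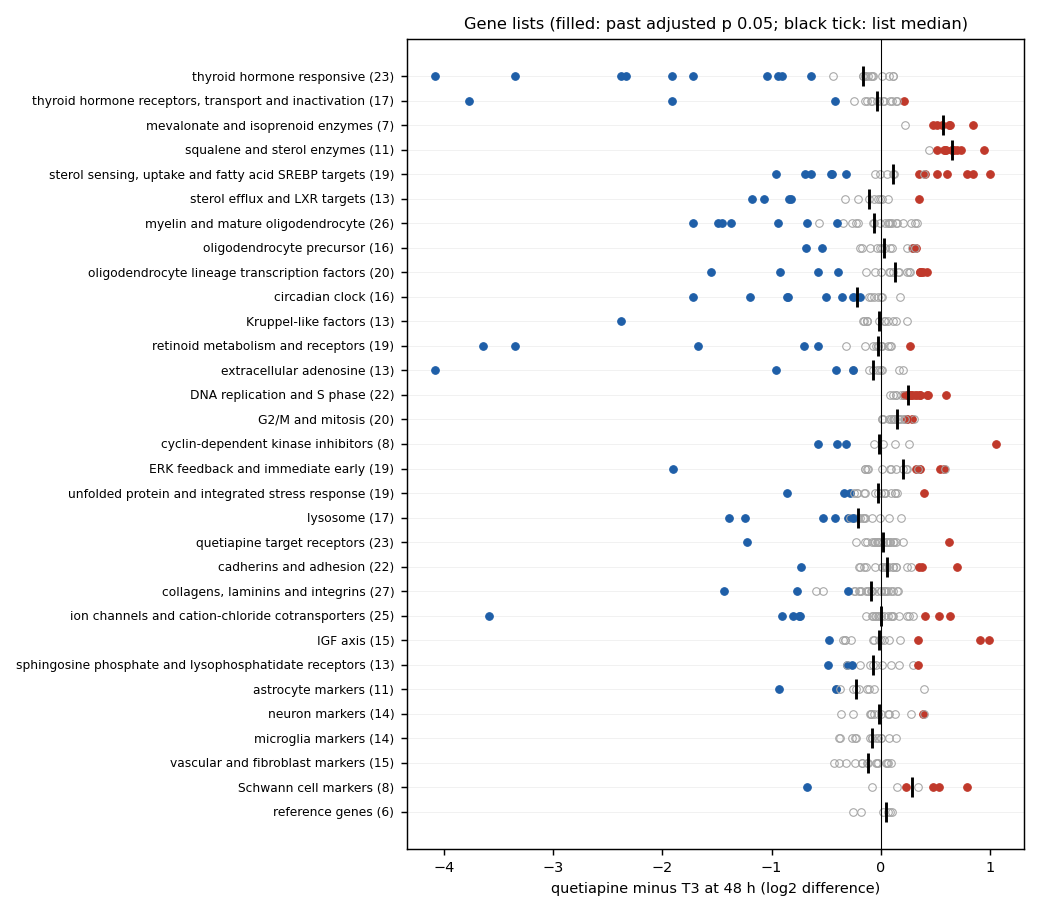
Difference in log2 expression, quetiapine minus T3 at 48 hours, for the measured members of 31 gene lists (number measured in brackets). Filled points passed the test, red higher and blue lower in quetiapine cultures, and black ticks are list medians. The sterol synthesis lists lie right of 0 in full, as do the S phase and mitosis lists, while the thyroid hormone, retinoid and myelin lists have tails to the left and medians of −0.159, −0.0283 and −0.0656.

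At 96 hours the comparison was repeated on other arrays of the same preparations. There 350 probe sets were higher (1.13%) and 993 lower (3.20%) in quetiapine cultures. Of the 672 lower at 48 hours, 526 were lower at 96 hours as well, which is 78.3% of the 48 hour set and 53.0% of the 96 hour set. Of the 199 higher, 115 were higher again (57.8% and 32.9% of the sets). The sign was kept by 664 of the lower and 195 of the higher probe sets. A single probe set was called in opposite directions, that of Pou3f1, a POU factor of glia, at 0.79 at 48 hours and −1.16 at 96 hours, and the difference between its times did not pass (adjusted p = 0.092). Nt5e, Crym, Hr, Klf9 and Dbp differed by −4.15, −3.88, −2.39, −2.13 and −1.86 at 96 hours. The squalene and sterol list again had 10 of 11 genes higher, and the mevalonate list 6 of 7.

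A test of the difference between the times found 22 probe sets (0.0709% of those tested), 10 with a more positive and 12 with a more negative difference at 96 hours. Of these, 9 had been called at 48 hours, and 2266 probe sets had an unadjusted p under 0.05. Scg2 encodes a granin, a protein packed into secretory vesicles. It was lower in quetiapine cultures at 48 hours (3.91, 4.11 and 3.87 against 5.43, 6.73 and 6.21 in T3 cultures). The difference was larger at 96 hours, when the means were 4.28 and 8.86 (difference of differences −2.41 ± 0.34, adjusted p = 0.013). The quetiapine mean was near the floor at both times (3.96 and 4.28), and the T3 mean was 6.12 at 48 hours. Fgl2, a secreted fibrinogen-like protein, was near the floor under both compounds at 48 hours and at means of 3.74 in quetiapine and 7.20 in T3 cultures at 96 hours (−3.16 ± 0.39, adjusted p = 0.0038). Deptor, an inhibitor of mTOR, went the other way. It was at 5.62, 5.97 and 7.55 in quetiapine cultures and at 7.16, 8.21 and 8.73 in T3 cultures at 48 hours, and at means of 10.16 and 9.99 at 96 hours, so that the difference of −1.65 at 48 hours was 0.16 at 96 hours (1.82 ± 0.22, adjusted p = 0.0038). Zfp536 likewise was −1.56 apart at 48 hours and −0.27 at 96 hours (1.29 ± 0.19, adjusted p = 0.018), with both compounds at a high level by then (10.66 and 10.93).

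**Figure D5:**
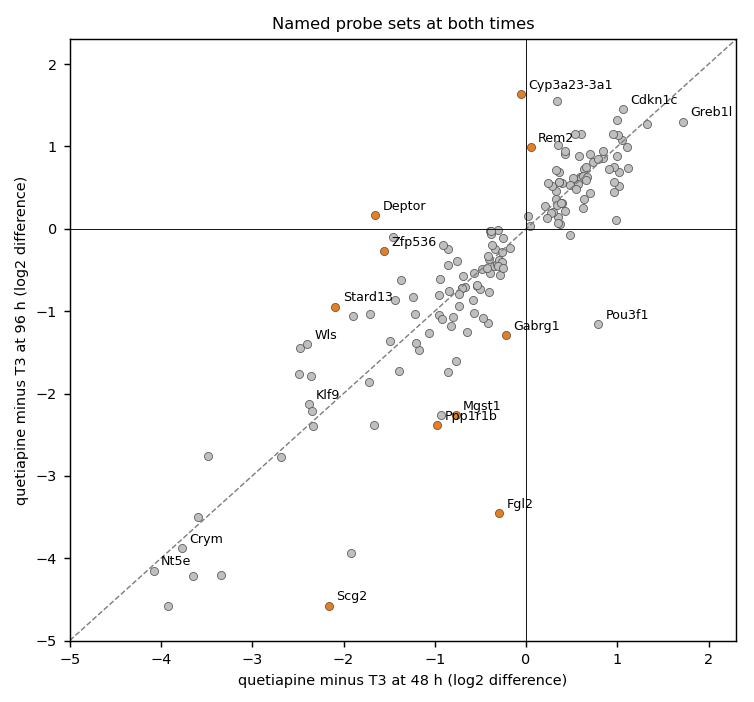
Log2 difference, quetiapine minus T3, at 48 hours (horizontal) and at 96 hours (vertical) for the named probe sets, with the line of equal values dashed. Orange points passed the test of the difference between the times. Most points lie near the line, Scg2 and Fgl2 lie far below it, and Deptor and Cyp3a23-3a1 above it.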

How the data were processed

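The authors deposited log2 expression values per probe set from an Affymetrix rat array. Per the labels, RMA and limma were used, with no version, setting or genome build given in the sources used here. No further normalization was applied to these values, and scanner signals were not analysed. Of 31099 probe sets, 57 array controls were left out and 31042 tested. The array annotation gave 20826 of them a single symbol (14217 genes), 436 several and 9780 none. Those without a single symbol entered only the counts of probe sets.

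Limma 3.58.1 in R 4.3.3 was fitted to the 12 arrays of 48 hours with 4 group means and the replicate number as a fixed block, leaving 6 residual degrees of freedom, and likewise at 96 hours. The difference between times came from 1 fit of all 24 arrays with the block within each time. P values were moderated (eBayes) and adjusted by Benjamini-Hochberg over all probe sets. A called probe set had an adjusted p under 0.05 and a fold over 1.5; "passed the test" means the adjusted p alone. The deposited design states that each replicate supplied every condition. As a check, deviations from group means correlated at 0.43 to 0.777 in 18 pairs of arrays with the same number and at −0.681 to −0.00478 in 36 other pairs (quetiapine with T3: 0.739, 0.545 and 0.736). Deviations cancel out within a group, so the negative values follow on average from the positive ones and are no further check. No source used here says whether a replicate was a litter or a pool. The fit was tested on simulated data. Precision was limited by the number of arrays, 3 a group.

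In lists, a gene was represented by whichever of its single-symbol probe sets had the highest mean over the 12 arrays. Named genes were the 15 largest called rises and falls with all 3 pairs of the same sign, up to 6 members of each list that passed (2 if none), genes named in the study's text, and up to 5 each way for the difference between times; other list members are named to complete a group. The comparison, its 31 lists and these rules were chosen with earlier results of these data known. Alternatives were no block, the 6 arrays alone, all 24 arrays, centring on array medians, leaving out probe sets with a mean under 6, trended robust moderation, a test against a fold of 1.2, and leaving out each array or replicate.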

Additional observations from a re-analysis of the deposited data

Results flagged for a closer look

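For 10 named genes the difference between quetiapine and T3 differed between the times (limma, adjusted p under 0.05 for 96 hours minus 48 hours). These genes were named by their rank in this same test, so their passing it is no separate result. Fitted without the replicate block, 1 probe set passed this test. The difference was more positive at 96 hours for Deptor (1.82), Cyp3a23-3a1, a cytochrome P450 (1.69), Zfp536 (1.29), Stard13 (1.14), and Rem2, a small GTPase (0.94). Cyp3a23-3a1 and Rem2 did not pass the test at 48 hours (−0.06 and 0.05). At 96 hours their means were 6.39 and 5.97 in quetiapine cultures and 4.76 and 4.98 in T3 cultures. Stard13 was at 6.88, 6.31 and 7.28 in quetiapine cultures and at 9.11, 8.71 and 8.92 in T3 cultures at 48 hours, and at means of 7.99 and 8.94 at 96 hours.

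The difference was more negative at 96 hours for Fgl2 (−3.16), Scg2 (−2.41), Mgst1, a glutathione transferase (−1.50), Ppp1r1b, a phosphatase inhibitor (−1.41), and Gabrg1, a GABA receptor subunit (−1.07). Gabrg1 did not pass at 48 hours (−0.22, adjusted p = 0.26), and its means at 96 hours were 8.21 in quetiapine and 9.50 in T3 cultures. Mgst1 and Ppp1r1b were already lower at 48 hours (−0.77 and −0.97), with overlapping arrays. What underlies these differences was not tested.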

How the results depend on the processing

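Without the replicate block, so without the pairing, 70 probe sets were higher and 240 lower at 48 hours, against 199 and 672 with it. All 310 were among the calls with the block, and 77.4% were lower. At 96 hours the counts without it were 126 higher and 445 lower, and 1 probe set passed the test of the difference between the times. Tested against a fold of 1.2, 114 were higher and 443 lower. Without 1 array the higher count ran from 163 to 252 and the lower from 520 to 750, and without a replicate number from 89 to 249 and from 391 to 723, lowest without replicate 2 in both directions. The other alternatives (6 arrays, 24 arrays, centring, the filter, trended moderation) stayed within 1.5 times of both counts. Without the block most list counts fell by over 1.5 times. The counts that were left were, for genes higher, 3 for mevalonate enzymes, 6 for squalene and sterol enzymes, 2 for other SREBP targets, 1 each for cadherins and the IGF axis, and 0 for lineage factors, precursor genes, S phase, mitosis, ERK feedback, ion channels, Schwann cell markers, neuron markers, hormone transport and receptors, sterol efflux, retinoid genes, stress response and sphingosine phosphate. For genes lower they were 1 each for myelin, precursor genes, lineage factors, extracellular adenosine and cycle inhibitors, 2 each for clock and lysosome, 3 for ion channels, and 0 for other SREBP targets, sterol efflux, stress response, cadherins, collagens, the IGF axis, sphingosine phosphate and astrocyte markers. Within 1.5 times were the lower counts of the thyroid hormone responsive list (7), hormone transport and receptors (2) and retinoid genes (4), and the counts of 1 for Krüppel-like factors, cycle inhibitors higher, ERK feedback lower, quetiapine targets both ways and Schwann cell markers lower. Without 1 of the 6 arrays, counts ran from 2 to 5 for mevalonate enzymes, 2 to 5 for sterol efflux lower, 3 to 5 for myelin, 2 to 4 for lineage factors higher, 4 to 8 for clock genes, 2 to 10 for S phase, 0 to 4 for mitosis, 2 to 5 for ERK feedback, 1 to 3 for Schwann cell markers, cadherins higher and stress response lower, 1 to 4 for collagens, 0 to 3 for astrocyte markers, and 0 to 2 for ion channels higher, sphingosine phosphate lower and precursor genes higher. Of 147 named probe sets past the test, 88 stayed past it without any single array and 49 without the block, and none changed sign. Called probe sets with both means under 6, where probe signal is near the floor, numbered 76 (8.73% of calls, against 42.4% of all probe sets).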

Other observations

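The following groups were written after the values had been seen, so their counts describe and test nothing. Of 39 measured genes of fatty acid oxidation and lipid storage, 14 were lower and 1 higher in quetiapine cultures (median −0.176), beside 6.91% and 5.14% of all genes. Plin2, which coats lipid droplets, was at 7.73, 7.97 and 8.16 in quetiapine cultures and at 9.48, 9.82 and 9.76 in T3 cultures (−1.74 ± 0.14, adjusted p = 4.7e-05). Dgat2, the last enzyme of triglyceride synthesis, was at 9.69, 9.66 and 10.01 against 11.03, 11.01 and 11.03 (−1.23 ± 0.13). Gpd1 (−1.39 ± 0.18), Acsl6 (−1.21 ± 0.15) and Hadh (−0.83 ± 0.08) were lower too, and Acsl3, an acyl-CoA synthetase, was 0.50 ± 0.14 higher. Gpd1, Acsl6 and Acsl3 did not pass in the fit without the replicate block (adjusted p = 0.055, 0.10 and 0.13).

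Of 10 sodium pump subunits and regulators, 5 were lower and none higher. The beta subunits Atp1b1 and Atp1b2 were at 9.76, 9.45 and 9.59 and at 9.44, 9.83 and 9.96 in quetiapine cultures, and at 10.84, 11.20 and 11.53 and at 10.22, 10.92 and 11.31 in T3 cultures. Atp1b1 passed in the fit without the replicate block (adjusted p = 0.0013) and Atp1b2 did not (0.18). Of 6 TLE corepressors, 4 were higher (Tle6 0.77 ± 0.07, Tle1 0.74 ± 0.11, Tle2 0.61 ± 0.09 and Tle5 0.26 ± 0.06) and Tle3 lower (−0.47 ± 0.09). Tle1 and Tle5 overlapped between the groups. In the fit without the replicate block Tle6 passed (adjusted p = 0.025), and Tle1, Tle2, Tle5 and Tle3 did not (0.66, 0.063, 0.42 and 0.097). Of 16 sialyltransferases, 4 were lower, led by St6gal1 at 8.53, 8.39 and 8.51 in quetiapine cultures and 10.39, 10.22 and 10.21 in T3 cultures (−1.79 ± 0.06, adjusted p = 3.4e-07).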
